A study of Mus musculus with 29 samples.

Results

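The genes described here are 7 C-type lectin receptors of myeloid cells, Clec2d, Clec4d, Clec4e, Clec4n, Clec5a, Clec12a and Clec4a2, out of 48709 genes in each count table. They were selected on measured values, mainly those of the co-culture comparison, and with the results of the other 2 experiments known, so their values in the anti-miR-99b against sc-control comparisons are given as a description. Anti-miR-99b is an antisense oligonucleotide of locked nucleic acid (LNA) directed at miR-99b-5p, and sc-control is an LNA without that target. In the first experiment, prefrontal cortex (PFC) tissue came from male C57BL/6J mice aged 3 months whose PFC had been injected on both sides with lipid nanoparticles carrying either anti-miR-99b (3 mice) or sc-control (3 mice), 5 days before collection. In the second, primary microglia from CD1 pups of postnatal day 1, grown with 20% L929 conditioned medium, were treated with 1 of the LNAs, anti-miR-99b in 4 libraries and sc-control in 4. In the third, CD1 microglia were exposed for 48 h to anti-miR-99b (7 libraries) or sc-control (8 libraries). They were then moved onto cortical neurons from CD1 embryos of day 17.5 for another 48 h. The LNA was given to the microglia before the transfer, and the RNA came from the whole co-culture. Neither arm carries a genetic change. Because the libraries hold polyadenylated RNA, miR-99b-5p was not quantified here.

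C-type lectin receptors are surface proteins through which macrophages, microglia and dendritic cells recognise sugars, glycolipids and products of dying cells. Clec4e (Mincle), Clec4d (MCL) and Clec4n (Dectin-2) pair with the adaptor Fcer1g and Clec5a (MDL-1) with the adaptor Tyrobp, and both adaptors recruit the kinase Syk, which signals through Card9 to NF-kB and to genes of cytokines and chemokines. Clec12a and Clec4a2 carry an inhibitory motif in their cytoplasmic tails that recruits phosphatases such as Ptpn6, and Clec2d is a ligand of the inhibitory receptor Klrb1b of natural killer cells.

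The mature miR-99b-5p, shown because it is what the LNA binds, comes from chr17:17830194-17830215 on the plus strand (GRCm38.p6, RefSeq), and its seed (bases 2 to 8, in capitals) is shared with miR-99a-5p and miR-100-5p.
miR-99b-5p: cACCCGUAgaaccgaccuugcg
miR-99a-5p: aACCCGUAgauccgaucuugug
miR-100-5p: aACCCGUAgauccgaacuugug
The 7-base complement of that seed, TACGGGT, was found in none of the 3′ untranslated regions of the 7 receptors (GENCODE M21, protein-coding transcripts), and neither was its 6-base core ACGGGT. Among the 20971 genes with such a region, 1.16% held the 7-base and 5.75% the 6-base match. The absence of these letters describes only the annotated regions searched.

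All 7 receptor genes lie on mouse chromosome 6 (GRCm38), in 3 places. Clec5a stands alone at chr6:40574894-40585821 on the minus strand. Clec4a2 (chr6:123106428-123143999, plus), Clec4n (chr6:123229843-123247021, plus), Clec4d (chr6:123262111-123275265, plus) and Clec4e (chr6:123281789-123289870, minus) are neighbours, with 6.5 kb between Clec4d and Clec4e. Clec2d (chr6:129180615-129186534, plus) and Clec12a (chr6:129342691-129365303, plus) belong to the natural killer gene complex, where Clec7a (Dectin-1) is the next gene past Clec12a that was tested in the co-cultures. A processed pseudogene, Gm44132, lies inside Clec4a2, and Clec4a2 and Clec2d have close paralogs, so counts for these genes could be split with their copies.

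Promoters are shown for the 4 receptors that passed the threshold in the co-cultures, since these moved in the same direction. Each window runs from 250 bases before to 50 after the annotated start (GRCm38.p6, RefSeq), and a window was given for 6 of the 7 genes, with Clec4n the exception. Capitals mark matches on either strand to GAGGAA, a core bound by the myeloid factor PU.1.
Clec2d, chr6:129180365-129180664, plus strand: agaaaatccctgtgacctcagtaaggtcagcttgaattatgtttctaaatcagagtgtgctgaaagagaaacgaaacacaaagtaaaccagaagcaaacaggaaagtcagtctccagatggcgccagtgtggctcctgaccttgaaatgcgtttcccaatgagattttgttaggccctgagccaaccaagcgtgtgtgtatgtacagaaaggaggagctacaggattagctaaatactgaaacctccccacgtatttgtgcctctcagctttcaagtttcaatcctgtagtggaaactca
Clec4d, chr6:123261857-123262156, plus strand: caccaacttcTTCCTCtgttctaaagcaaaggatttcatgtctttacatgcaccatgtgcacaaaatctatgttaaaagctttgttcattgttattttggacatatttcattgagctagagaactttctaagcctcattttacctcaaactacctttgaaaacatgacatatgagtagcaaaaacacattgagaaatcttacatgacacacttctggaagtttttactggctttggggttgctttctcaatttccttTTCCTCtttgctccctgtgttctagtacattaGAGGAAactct
Clec4e, chr6:123289822-123290121, minus strand: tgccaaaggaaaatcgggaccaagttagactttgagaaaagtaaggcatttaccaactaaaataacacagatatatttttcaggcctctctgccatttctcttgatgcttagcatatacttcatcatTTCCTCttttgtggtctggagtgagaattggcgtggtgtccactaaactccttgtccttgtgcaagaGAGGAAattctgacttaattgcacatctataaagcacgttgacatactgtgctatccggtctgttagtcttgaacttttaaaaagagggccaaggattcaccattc
Clec5a, chr6:40585756-40586055, minus strand: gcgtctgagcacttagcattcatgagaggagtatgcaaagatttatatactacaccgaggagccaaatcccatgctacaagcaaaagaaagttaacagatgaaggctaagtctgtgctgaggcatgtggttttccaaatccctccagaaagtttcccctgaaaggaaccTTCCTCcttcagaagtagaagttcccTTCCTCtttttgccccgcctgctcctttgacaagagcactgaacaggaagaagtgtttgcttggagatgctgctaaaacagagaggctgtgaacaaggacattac
GAGGAA occurred in Clec4d (3 matches), Clec4e (2), Clec5a (2) and Clec12a (2) and not in Clec2d or Clec4a2, against 28.3% of the 27025 promoters of this length. The AP-1 motif TGANTCA was present in Clec12a and Clec4a2 (7.93% of all promoters) and the C/EBP motif TTGCNNAA in Clec4e and Clec12a (10.8%). A match of letters does not show that a factor binds, and receptors with and without a higher level in the co-cultures both carried GAGGAA.

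The 29 libraries held 21324156 to 37901110 counted reads (median 28450652), and no 2 libraries agreed within sampling noise. Neuron markers summed to 5989 to 6314 CPM (counts scaled to a common library size) in the co-cultures, astrocyte markers to 2216 to 2412 CPM and microglia markers to 152.1 to 189.3 CPM, against 11220 to 11880 CPM of microglia markers in the microglia cultures. In the microglia cultures Tmem119 stood at 15.3 CPM and P2ry12 at 68.1 CPM in the sc-control mean, and Siglech was too low to be tested. The labels do not say whether libraries of a group came from separate cultures, so for the cultures p-values measure the spread between these libraries, which may be technical.

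Clec2d, Clec4d, Clec4e and Clec5a were higher in co-cultures whose microglia had received anti-miR-99b, with Clec2d at 2.11 and Clec4d at 1.77 times the sc-control level. The receptors with an inhibitory motif, Clec12a and Clec4a2, were measured at the highest read numbers of the 7 and did not pass the threshold. In all, 4 of the 7 receptors passed an adjusted p under 0.05 with a log2 fold change (log2FC) beyond 0.1 in the upward direction, where 0.846% of the 16193 genes tested were called higher. In 3 of the 7, Clec2d, Clec4d and Clec4e, every anti-miR-99b library lay above every sc-control library, which was so for 0.303% of the genes tested. Since the receptors were selected on this contrast, nothing is read from these shares. In a mixed culture, a difference in microglial number, in the RNA of each microglial cell or in the RNA of other cells cannot be told apart.

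Clec2d ranged from 0.929 CPM over a median of 1.23 to 1.40 CPM in the 7 anti-miR-99b libraries and from 0.471 over 0.537 to 0.685 CPM in the 8 sc-control libraries. These levels rest on 25 to 38 reads per library against 12 to 21 reads, so that Clec2d is among the least deeply counted of the 7. Its mean was 1.16 ± 0.17 CPM (SD, n = 7) against 0.550 ± 0.073 CPM (SD, n = 8). The log2FC was 1.07 ± 0.13 (SE) with an adjusted p of 3.156e-05 (edgeR quasi-likelihood test, adjusted over all genes tested). The receptor that Clec2d engages, Klrb1b, passed the filter on low counts only in the microglia cultures, at 1.38 ± 0.34 CPM (SD, n = 4) with anti-miR-99b and 1.43 ± 0.27 CPM (SD, n = 4) with sc-control.

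Clec4d, which forms a receptor complex with Clec4e, ranged from 2.57 over a median of 3.11 to 3.18 CPM with anti-miR-99b and from 1.24 over 1.68 to 2.13 CPM with sc-control. The lowest anti-miR-99b library, replicate 12, lay above the highest sc-control library, replicate 11. The log2FC was 0.83 ± 0.10 (SE) with an adjusted p of 2.099e-05 in the edgeR fit, the 8th smallest p of the experiment. Clec4e, a sensor of mycobacterial glycolipids and of a nuclear protein released by dead cells, ranged from 2.57 over 3.22 to 4.58 CPM with anti-miR-99b and from 1.66 over 2.17 to 2.51 CPM with sc-control. Its groups were separated only narrowly, and the anti-miR-99b libraries spread more widely, with replicate 10 the highest. The log2FC of Clec4e was 0.64 ± 0.12 (SE) with an adjusted p of 0.004169 in the edgeR fit.

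Clec5a, an activating receptor of neutrophils and macrophages, ranged from 0.816 over 1.19 to 1.33 CPM with anti-miR-99b and from 0.587 over 0.728 to 0.998 CPM with sc-control. The groups overlapped, since anti-miR-99b replicates 2 and 11 fell below the highest sc-control libraries, although all 7 lay above the sc-control median. The log2FC was 0.55 ± 0.14 (SE) with an adjusted p of 0.04338 in the edgeR fit, which placed Clec5a just inside the threshold, and the nearest receptor outside it was Clec4n with an adjusted p of 0.3141. Clec5a lost its call in 11 of the 15 fits that left out 1 library, with adjusted p-values of up to 0.108, and in DESeq2 (adjusted p of 0.0505).

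Clec4n, the receptor for fungal mannans, ranged from 0.645 over 0.965 to 1.36 CPM with anti-miR-99b and from 0.424 over 0.707 to 1.22 CPM with sc-control. Both groups spread over much of the same range, and the log2FC was 0.44 ± 0.19 (SE). Clec12a, which binds uric acid crystals, ranged from 6.93 over 8.68 to 9.82 CPM with anti-miR-99b and from 6.02 over 7.72 to 8.95 CPM with sc-control. Clec4a2 (DCIR) ranged from 5.96 over 7.57 to 8.77 CPM with anti-miR-99b and from 6.10 over 6.59 to 8.44 CPM with sc-control. The groups of both inhibitory receptors overlapped almost fully. Their log2FC was 0.15 ± 0.08 (SE, adjusted p of 0.4142 with edgeR) for Clec12a and 0.07 ± 0.08 (SE, adjusted p of 0.7683) for Clec4a2, with 95% intervals of -0.00098 to 0.30 and -0.08 to 0.23. Both intervals lie below those of Clec2d (0.81 to 1.33) and Clec4d (0.63 to 1.02), and the difference between receptors was not tested because they were selected on these values.

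**Figure D1:**
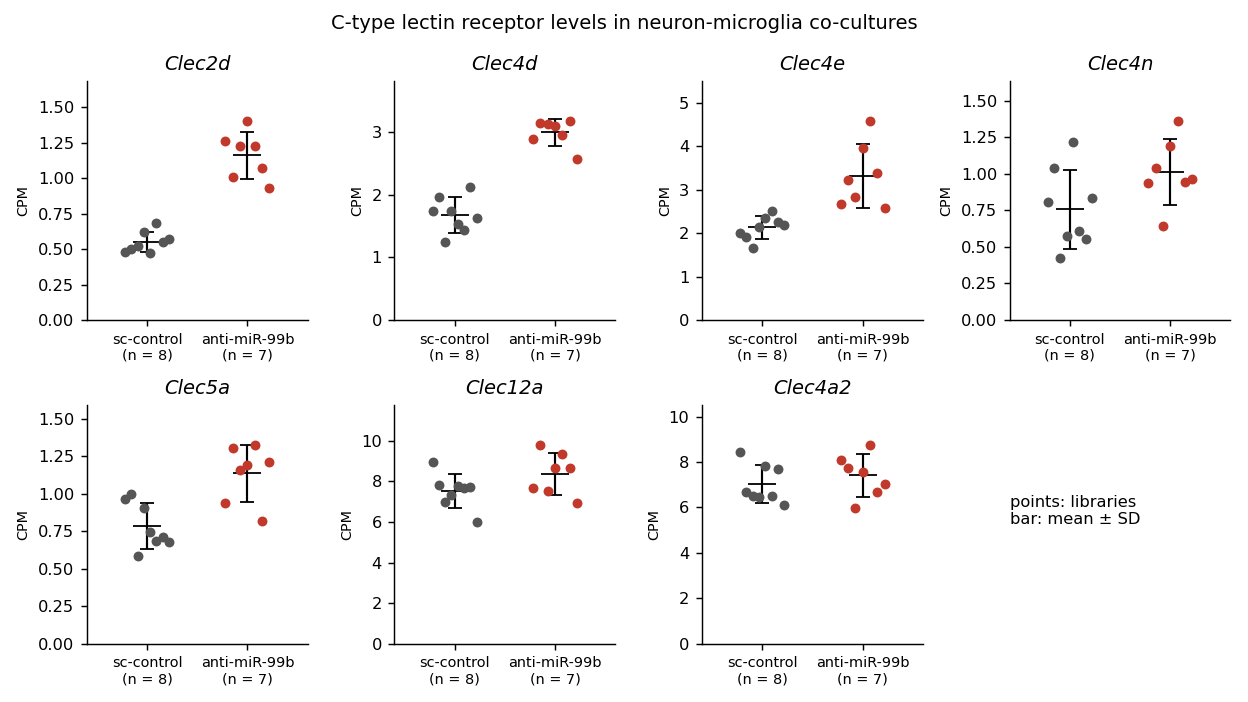
Level of each receptor in CPM (vertical axes, starting at 0) in every co-culture library, with points for libraries and bars for the mean ± SD of 8 sc-control and 7 anti-miR-99b libraries. The groups do not overlap for Clec2d, Clec4d and Clec4e, overlap in part for Clec5a and overlap almost fully for Clec12a and Clec4a2.

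The libraries were run in 4 sequencing lanes, and the ratios within lanes had the same direction for the called receptors. Within lanes 4, 5, 6 and 7, the log2 ratio of the mean CPM was 1.21, 1.19, 1.04 and 0.94 for Clec2d. For Clec4d it was 0.71, 1.06, 1.10 and 0.63, and for Clec4e 0.59, 0.47, 0.66 and 0.66. Clec5a varied more between lanes, at 0.19, 0.64, 0.80 and 0.69, and with the lane as a block its adjusted p was 0.09522 in edgeR. Clec4n had a negative ratio in lane 5 (-0.20), as had Clec4a2 (-0.22), while Clec12a ranged from 0.03 to 0.27. Lanes hold 2 to 5 libraries each, so these are values with no test.

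Some of the microglia markers were also higher with anti-miR-99b in the co-cultures. Of 15 markers, 14 were tested and 5 were called higher, namely Cx3cr1, Csf1r, C1qa, Trem2 and Olfml3, with a median log2FC of 0.22 over the 14 and of 0.0025 over all genes. The log2FC was above 0 for 12 of the 14 and below 0 for Itgam (-0.24 ± 0.12 SE, adjusted p of 0.3853 with edgeR) and Sall1 (-0.10 ± 0.03 SE, adjusted p of 0.143). The summed marker level ranged from 167.5 over 179.6 to 189.3 CPM with anti-miR-99b and from 152.1 over 159.3 to 179.3 CPM with sc-control. Of the border macrophage markers 1 of 3 tested (Ms4a7) was called higher, with a summed level of 14.9 to 17.6 CPM against 9.89 to 15.0 CPM. In the sc-control microglia cultures this list summed to 745.6 to 827.6 CPM, with Ms4a7 at a mean of 243 CPM. Here it therefore does not tell border macrophages from the cultured microglia. No tested marker of neutrophils, monocytes, dendritic cells, neurons, astrocytes, oligodendrocytes, endothelial cells or fibroblasts was called in either direction. Only 1 of 10 neutrophil, 2 of 7 monocyte, 2 of 6 dendritic cell and 2 of 4 endothelial markers could be tested, so these cell types were hardly measured. The monocyte markers were Hp (log2FC of 0.82 ± 0.25 SE, adjusted p of 0.1112 with edgeR) and Vcan (-0.09 ± 0.03 SE, 0.09729). Lymphocyte and natural killer markers were too low to be tested, with a summed level under 0.738 CPM, and the neutrophil genes S100a9, Ngp and Retnlg had 0 reads in every library.

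Set against the summed marker level of the same library, Clec2d and Clec4d separated the groups. The sum includes Sall1, at a mean of 29.3 CPM in the sc-control co-cultures. That was 78.0% of its level in sc-control microglia, against a marker median of 1.03%. Whether the sum measures microglia alone was not tested. Clec2d amounted to 0.532 over 0.656 to 0.757 CPM per 100 CPM of markers with anti-miR-99b and 0.269 over 0.337 to 0.442 with sc-control, and Clec4d to 1.47 over 1.68 to 1.87 against 0.801 over 1.01 to 1.30. Clec4e (1.47 to 2.45 against 1.07 to 1.62) and Clec5a (0.431 to 0.728 against 0.380 to 0.596) overlapped on this scale, each with 5 of 7 anti-miR-99b libraries above all sc-control libraries. The inhibitory receptors showed close medians, with 4.58 against 4.71 for Clec12a and 4.08 against 4.20 for Clec4a2. With the mean marker level as a covariate in the edgeR fit, added after the data had been seen, the log2FC was 1.04 ± 0.22 (SE, adjusted p of 0.1992) for Clec2d, 0.64 ± 0.15 (SE, 0.3623) for Clec4d, 0.46 ± 0.19 (SE, 1) for Clec4e and 0.25 ± 0.21 (SE, 1) for Clec5a. In that fit Clec12a stood at -0.07 ± 0.11 (SE) and Clec4a2 at -0.12 ± 0.12 (SE). It called 0 of the 7 receptors and 3 genes higher in all. At an unadjusted p under 0.05 it had 251 genes higher and 341 lower of 16193, with Clec2d, Clec4d and Clec4e among those higher. DESeq2 without the covariate called 3 of the 7, and 158 genes higher in all. Since the receptors were selected on this contrast, nothing is read from these counts. In 6 of 7 anti-miR-99b libraries the mean marker level lay above all sc-control libraries, so the covariate and the treatment cannot be fully told apart.

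**Figure D2:**
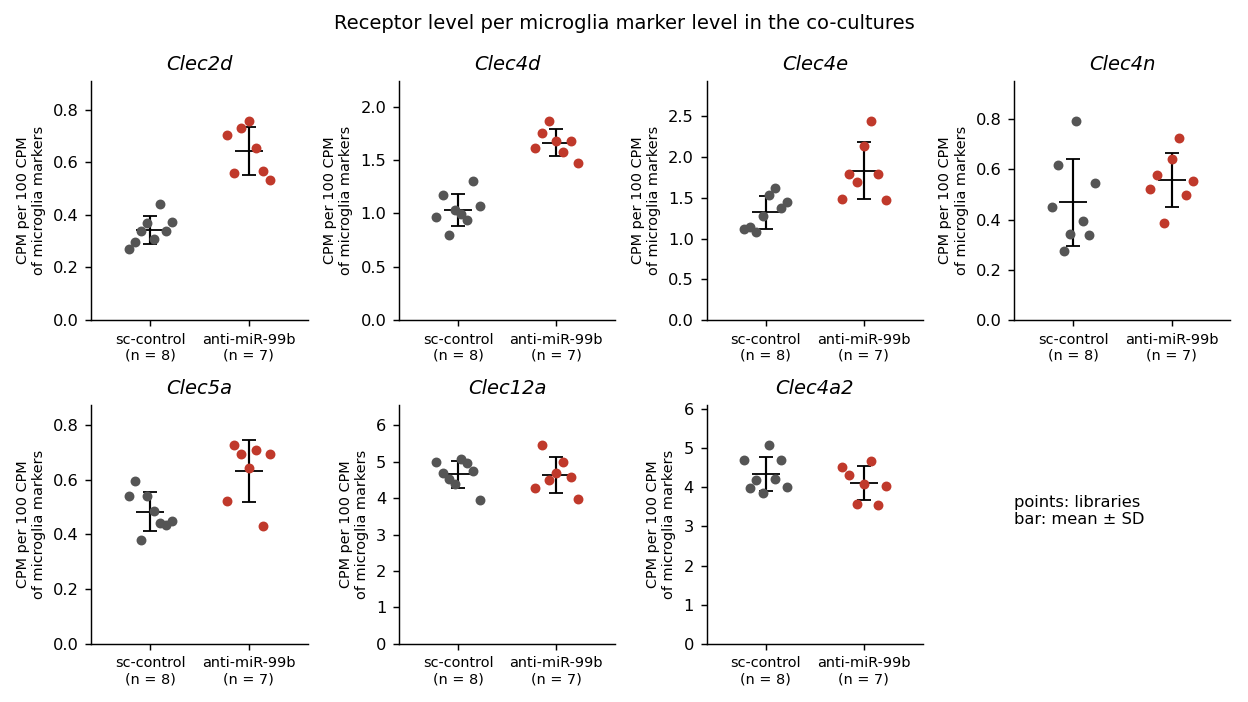
Receptor level per 100 CPM of summed microglia markers in every co-culture library (vertical axes, starting at 0), with points for libraries and bars for the mean ± SD. The groups do not overlap for Clec2d and Clec4d, while the medians of Clec12a (4.58 against 4.71) and Clec4a2 (4.08 against 4.20) lie close together.

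The relation of each receptor to the microglia marker level was also computed within the groups. The mean marker level, which was also the covariate, gives equal weight to 14 markers. Of these P2ry13, Tmem119, Gpr34 and P2ry12 had sc-control means of 0.342, 0.445, 0.455 and 0.614 CPM, so counting error limits the marker level too. Over the 15 co-culture libraries, as deviations from the group means, Pearson's r with the mean marker level was highest for Clec12a at 0.56 (permutation p of 0.03164, adjusted 0.1544 over the 7 receptors), with a Spearman's rho of 0.64 (permutation p of 0.01249, adjusted 0.08743). It was 0.52 for Clec5a (permutation p of 0.04897, adjusted 0.1544, with a rho of 0.54 and p of 0.0393, adjusted 0.1375). It was 0.48 for Clec4d (permutation p of 0.06616, adjusted 0.1544, with a rho of 0.47 and p of 0.0774, adjusted 0.1806). Clec2d showed the lowest r at 0.03 (permutation p of 0.9043, adjusted 0.9043, with a rho of 0.08 and p of 0.7799, adjusted 0.7799). Clec2d rests on 12 to 38 reads per library and Clec12a on 159 to 295, so counting error limits the r of Clec2d. The other 3 had values of 0.44 (Clec4a2, permutation p of 0.1029, adjusted 0.1801), 0.26 (Clec4n, 0.3534, adjusted 0.4948) and 0.20 (Clec4e, 0.4737, adjusted 0.5526), with a rho of 0.43, 0.22 and 0.11 (permutation p of 0.1125, 0.4346 and 0.6841, adjusted 0.1969, 0.6085 and 0.7799). None of the 7 relations passed the correction. Without the 2 libraries farthest from the median marker level, r was 0.52 for Clec12a, 0.46 for Clec5a, 0.44 for Clec4d and 0.27 for Clec2d. Within the 7 anti-miR-99b and the 8 sc-control libraries alone, r was 0.52 and 0.62 for Clec12a but -0.08 and 0.87 for Clec5a and 0.80 and -0.29 for Clec4e, so that only Clec12a and Clec4a2 (0.53 and 0.41) had r above 0.4 in both groups. Lanes hold too few libraries for a value of their own.

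The cultured microglia, analysed without neurons, showed much higher levels of all 7 receptors and close levels between the arms. None of the 7 was called in the edgeR fit, where 0.435% of 14953 genes were called higher, and none had an unadjusted p under 0.05 with edgeR or DESeq2. Clec4d stood at 314, 314, 300 and 315 CPM with anti-miR-99b and at 335, 310, 285 and 299 CPM with sc-control. Its log2FC was 0.02 ± 0.04 (SE, adjusted p of 0.967) with a 95% interval of -0.05 to 0.09, which does not reach the interval of 0.63 to 1.02 in the co-cultures. The difference between the experiments was not tested, since the receptors were selected with both results known.

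Clec2d measured 24.2, 24.5, 23.4 and 24.2 CPM with anti-miR-99b and 24.5, 23.01, 23.4 and 22.7 CPM with sc-control in the microglia. Its log2FC of 0.05 ± 0.04 (SE) had an interval of -0.04 to 0.13. Clec4e showed the largest log2FC of the 7 in these cultures, from 42.8, 47.8, 44.4 and 48.1 CPM against 48.2, 43.4, 36.9 and 41.1 CPM. The groups overlapped, with sc-control replicate 2 the highest library of all, and the log2FC was 0.12 ± 0.06 (SE, adjusted p of 0.7814 with edgeR). Without that replicate Clec4e was called (log2FC of 0.18, adjusted p of 0.06173). Within lane 5 the log2 ratio of Clec4e was -0.02 and within lane 6 it was 0.25. The other 4 receptors lay between -0.01 (Clec12a) and 0.02 (Clec4n) in log2FC, with sc-control means of 378.8 CPM for Clec12a, 95.1 CPM for Clec5a, 87.2 CPM for Clec4a2 and 48.6 CPM for Clec4n. Microglia markers summed to 11460 to 11880 CPM with anti-miR-99b and to 11220 to 11670 CPM with sc-control, and 0 of 14 were called.

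In PFC tissue Clec2d and Clec5a were counted in 59 to 201 reads per library and the other 5 receptors in fewer. Clec4d had 5 to 10 reads per library with anti-miR-99b and 2 to 8 with sc-control, and Clec4e had 1 to 2 and 1 to 4 reads, so neither passed the filter on low counts and only 5 receptors were tested. None of the 5 was called in the edgeR fit, where 0.0864% of 17364 genes were called higher. Clec5a alone of the 5 had an unadjusted p under 0.05 with edgeR, a limit that 897 genes passed as higher and 429 as lower. None of the 5 passed it with DESeq2. Clec5a levels of 3.02, 3.47 and 3.75 CPM with anti-miR-99b stood beside 2.37, 2.08 and 3.06 CPM with sc-control. All 3 anti-miR-99b values lay above the sc-control median, but the highest sc-control mouse overlapped them, and the log2FC was 0.44 ± 0.18 (SE, adjusted p of 0.6485).

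Clec2d measured 2.94, 5.83 and 6.15 CPM with anti-miR-99b and 5.31, 3.35 and 5.86 CPM with sc-control in the PFC. Each arm held 1 mouse near 3 CPM and 2 mice above 5 CPM, and the log2FC of 0.04 ± 0.27 (SE) had an interval of -0.49 to 0.57. Clec4a2 had a log2FC of 0.30 ± 0.23 (SE), Clec12a of 0.14 ± 0.25 (SE) and Clec4n of 0.10 ± 0.32 (SE), each at under 1.1 CPM. The intervals of these receptors are wide, and Clec4d and Clec4e were counted in too few reads for a test at this depth. Microglia markers summed to 691.9, 705.4 and 753.7 CPM against 554.1, 562 and 725.1 CPM, and neutrophil markers to 3.02 to 4.18 CPM against 2.08 to 2.97 CPM. Their part in the value of Clec5a was not tested.

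**Figure D3:**
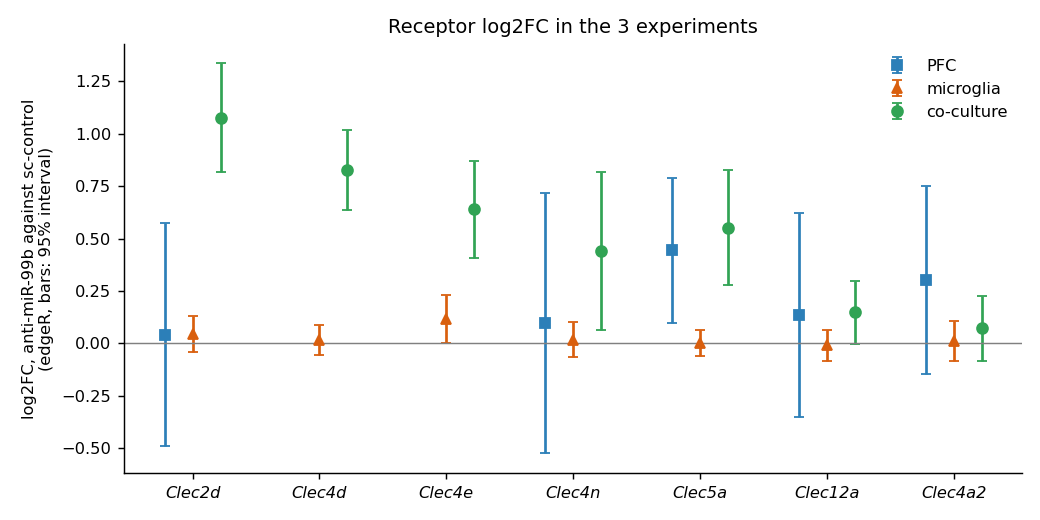
Log2FC of anti-miR-99b against sc-control for each receptor in the PFC, the microglia and the co-cultures (edgeR, points for the estimate and bars for the 95% interval). The intervals lie wholly above 0 for Clec2d, Clec4d, Clec4e, Clec5a and Clec4n in the co-cultures, for Clec5a in the PFC and for Clec4e in the microglia, the microglia intervals are the narrowest, and Clec4d and Clec4e have no PFC value because they did not pass the filter.

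The order of the receptors differed between the experiments when levels were divided by exon length (RPKM, the CPM per kilobase of exon). In sc-control microglia Clec4d led with a median of 190.4 RPKM, followed by Clec12a (68.8), Clec4n (34.2), Clec4a2 (28.9), Clec5a (24.8), Clec2d (19.1) and Clec4e (8.51). Only the ranges of Clec4n and Clec4a2 overlapped among neighbours in that order. In sc-control co-cultures Clec4a2 led with 2.25 RPKM, followed by Clec12a (1.40), Clec4d (1.05), Clec4n (0.498), Clec2d (0.443), Clec4e (0.437) and Clec5a (0.190). Ranges overlapped between each neighbouring pair from Clec12a down to Clec4e. In sc-control PFC tissue Clec2d led with 4.38 RPKM, above Clec5a (0.618), Clec4n (0.298), Clec4a2 (0.279), Clec12a (0.146), Clec4d (0.0546) and Clec4e (0.0071). There the ranges of Clec4n and Clec4a2 and those of Clec12a and Clec4d overlapped.

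**Figure D4:**
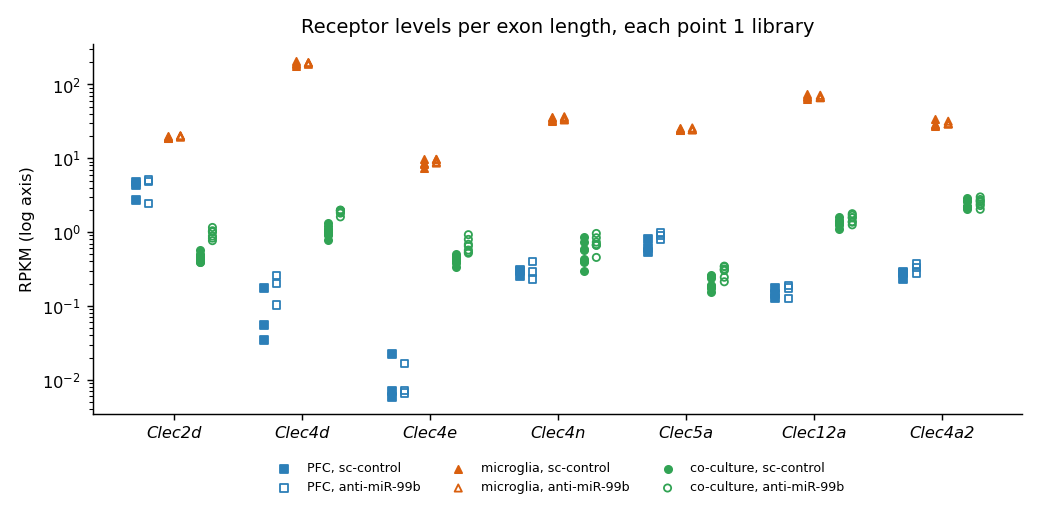
Receptor level in RPKM (log axis) in every library, by experiment (colour and shape) and arm (filled for sc-control, open for anti-miR-99b). The microglia lie highest for all 7 receptors, Clec2d is the highest of the 7 in the PFC at a median of 4.38 RPKM, and Clec4a2 is the highest in the co-cultures at 2.25 RPKM.

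Set against the cultured microglia, the receptors stood at different fractions of that level in the co-cultures. Which cells gave the co-culture reads was not tested. The sc-control mean of Clec4d in the co-cultures was 0.545% of that in the microglia, that of Clec5a 0.826%, Clec4n 1.56%, Clec12a 1.99%, Clec2d 2.35%, Clec4e 5.03% and Clec4a2 8.06%. The 14 microglia markers tested in both had a median of 1.03%, from 0.282% for Csf1r to 78.0% for Sall1. Thus Clec4d and Clec5a lay below the marker median and the other 5 receptors above it. In the PFC Clec2d reached 20.7% of its level in the microglia and Clec12a 0.218%, against a marker median of 4.27%. These ratios set side by side experiments that were normalized separately and differ in strain, age and culture, so no test was made.

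Among the other C-type lectin genes, Clec7a, the Syk-coupled receptor for fungal glucans, was called in the co-cultures. Of 38 such genes 13 were tested, 1 was called higher and none lower, and the median log2FC was 0.03 against 0.0025 over all genes. Clec7a measured 0.979 ± 0.242 CPM (SD, n = 7) with anti-miR-99b and 0.603 ± 0.088 CPM (SD, n = 8) with sc-control. Its log2FC was 0.69 ± 0.16 (SE, adjusted p of 0.0241 with edgeR), with groups that overlapped, and the call was lost in 4 of the 15 fits that left out 1 library, with the lane or replicate block (adjusted p of 0.0511 and 0.3592) and with the marker covariate (0.7223). In the microglia Clec7a stood at 503.4 ± 25.4 CPM (SD, n = 4) and 515 ± 14 CPM (SD, n = 4), with a log2FC of -0.03 ± 0.03 (SE). The neighbours Clec4a3 (log2FC of -0.01) and Cd69 (0.16), which share a stretch of chromosome 6 with the receptors, were not called.

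Of the adaptors and kinases that activating receptors use, 14 of 16 were tested in the co-cultures and 1 was called higher, Tyrobp, the partner of Clec5a. It rose from 8.74 ± 1.08 CPM (SD, n = 8) to 11.3 ± 0.9 CPM (SD, n = 7), a log2FC of 0.37 ± 0.07 (SE, adjusted p of 0.004169 with edgeR), and 0.16 ± 0.09 (SE, adjusted p of 1) with the marker covariate. Fcer1g, the partner of Clec4e, Clec4d and Clec4n, had a log2FC of 0.17 ± 0.06 (SE, adjusted p of 0.1722), Syk of 0.12 ± 0.06 (SE, 0.4178) and Card9 of 0.30 ± 0.13 (SE, 0.33). Neither the inhibitory phosphatases (0 of 3 called, with Ptpn6 at a log2FC of 0.12 and Inpp5d at 0.07) nor the NF-kB and NFAT factors (0 of 8) passed the threshold. Among these lists the medians were 0.10 for the adaptors and kinases and 0.07 for each of the other 2.

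Genes that lie downstream of Syk and Card9 in myeloid cells included more calls. Of 19 such genes 13 were tested in the co-cultures, 4 were called higher and none lower, with a median log2FC of 0.36, and in all 4 the groups did not overlap. Ccl3, a chemokine for monocytes, rose from 8.71 ± 1.23 to 14.0 ± 1.0 CPM (SD, n = 8 and 7), a log2FC of 0.67 ± 0.07 (SE, adjusted p of 3.355e-06 with edgeR). Cxcl2, a chemokine for neutrophils, rose by a log2FC of 0.86 ± 0.14 (SE, 0.001156), Ccl4 by 0.48 ± 0.06 (SE, 6.746e-05) and Tnf by 0.46 ± 0.07 (SE, 0.001174). With the marker covariate none of the 4 was called (adjusted p of 0.2344 for Ccl3, 0.8609 for Ccl4 and 1 for Cxcl2 and Tnf), and with the replicate block Cxcl2 and Tnf were not (0.1612 and 0.08607). Il1b had a log2FC of 0.48 ± 0.17 (SE, adjusted p of 0.1738), and the early response genes Egr2 and Egr3 had -0.18 and -0.01. These genes answer to many other signals as well, and the lists were chosen with earlier results known.

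**Figure D5:**
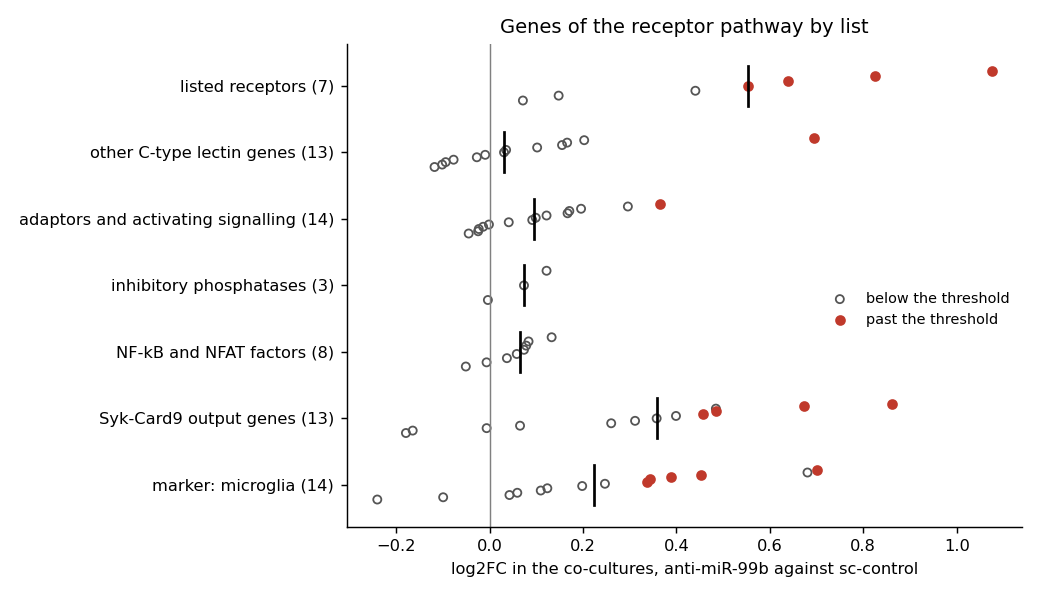
Log2FC in the co-cultures (horizontal axis) of each tested gene of 7 lists, with filled points for genes past the threshold, open points for the rest, black lines for the list median and the number tested in brackets. Calls lie among the listed receptors (4), the downstream genes (4) and the microglia markers (5), with 1 each among the other C-type lectin genes and the adaptors.

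In the microglia cultures and in the PFC, no gene of the other C-type lectin, adaptor, phosphatase, NF-kB and NFAT or downstream lists was called in either direction by edgeR. In the microglia the medians ran from -0.01 for the other C-type lectin genes (19 of 38 tested) to 0.05 for the NF-kB and NFAT factors. Tnf stood at 37.3 ± 1.2 and 37.1 ± 2.8 CPM (SD, n = 4 each) and Il1b at 11.6 ± 1.1 and 12.0 ± 1.3 CPM (SD, n = 4 each). In the PFC the medians ran from 0.09 for the other C-type lectin genes to 0.38 for the phosphatases, with Card9 (log2FC of 0.58 ± 0.18 SE), Inpp5d (0.38 ± 0.10 SE) and Tyrobp (0.42 ± 0.13 SE) separating the groups without passing the threshold (adjusted p of 0.5176, 0.3518 and 0.5359 with edgeR). The adaptor, phosphatase and receptor values in the PFC were measured beside a median log2FC of 0.20 of the microglia markers, of which 0 of 15 were called.

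The genes whose pattern was most like those of Clec2d and Clec4d were found over the 23 culture libraries, as deviations from the group means of log2 CPM, among 13931 genes. For Clec2d these were Sirt1 with a Pearson's r of 0.76, Gm10925 with 0.74 and Gm38190 with 0.73. For Clec4d they were Lyz2, the lysozyme gene of myeloid cells, with 0.80, Ly9 with 0.77 and Lpxn with 0.77. These are the highest values among many genes and are given as a description without a test, and in the co-cultures the values of Clec2d rest on 12 to 38 reads.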

How the data were processed

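RNA was measured in 29 libraries of 6 groups, taken from the labels. Per the labels, the authors made polyA libraries (TruSeq), read 50 bases single-end, ran bcl2fastq 2.20.2 and FastQC 0.11.5, aligned to mm10 with STAR 2.5.2b, counted with featureCounts 1.5.1 and deposited raw counts. Annotation release and strand setting are not given in the sources used here.

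Each experiment was fitted alone in R 4.3.3 with edgeR 4.0.16 (filterByExpr, TMM, quasi-likelihood test, no covariate), with Benjamini-Hochberg adjustment over all genes tested, after checks on simulated data. Thresholds were an adjusted p under 0.1 and a log2FC beyond 0.2 (PFC), 0.1 and 0.1 (microglia, chosen here) and 0.05 and 0.1 (co-cultures). SE was the size of the log2FC divided by the square root of F, and 95% intervals were 1.96 SE. These intervals use a normal approximation, so with few libraries they can leave out 0 where the edgeR p is above 0.05. CPM used TMM sizes, and RPKM divided CPM by the exon length in GENCODE M21, which named 48349 of 48709 genes. Correlations used log2(CPM + 0.5) and 100000 permutations, two-sided.

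The receptors and gene lists were chosen with earlier results of these data known. Named were all 7 receptors, up to 5 called genes per list by adjusted p, and Clec7a, Klrb1b, Fcer1g, Tyrobp, Syk, Card9, Ptpn6, Inpp5d, Il1b and Tnf; neighbours on the chromosome, Egr2, Egr3 and some marker genes below the threshold were named after their values were seen. Some marker genes are not reported here. Alternatives were DESeq2 1.42.0, RLE factors, other filters and thresholds, 1 RUVs factor, lane or replicate blocks and each library left out. Libraries of equal number did not deviate together (correlations of -0.28 to 0.05), so numbers were not treated as pairs.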

Additional observations from a re-analysis of the deposited data

Results flagged for a closer look

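In 28 groups of 4 to 8 libraries, 2 receptor values stood apart from their group by Dixon's criterion, which chance does for about 1 in 20 groups. In the microglia with anti-miR-99b, replicate 4 was the lowest for Clec4d, at 299.7 CPM with the nearest library at 314.1 CPM. In the same group replicate 3 was the highest for Clec5a, at 99.05 CPM with the nearest library at 94.24 CPM. Neither value changed a call when its library was left out.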

How the results depend on the processing

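In the co-cultures, the higher call of Clec2d and Clec4d remained in each of the 23 alternatives other than the marker covariate, with adjusted p-values of up to 0.0298 and 0.01275, and that of Clec4e in 22 of 23, with the replicate block as the exception (adjusted p of 0.1628). Clec5a kept it in 8 of 23. The cause of each change below was not tested. The number of receptors called was 4, and 3 or 4 without 1 library, 2 with the replicate block and 0 with the marker level as covariate, where Clec12a stood at -0.069 and Clec4a2 at -0.12 in log2FC.

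Counts of genes called higher in the co-cultures (137) were 284 with the RUVs factor, 85 with the lane block, 70 with the replicate block, 214 with an adjusted p under 0.1, 3 with the marker covariate and 89 to 159 without 1 library. Those called lower (90) were 236, 36, 23, 147, 0 and 49 to 141, and with the marker covariate 341 genes were lower at an unadjusted p under 0.05. In the microglia, genes higher (65) were 33 with DESeq2, 138 with no filter, 118 with RUVs and 0 (without sc-control replicate 4) to 234 (without sc-control replicate 2) without 1 library. Genes lower (8) were 5, 29, 42, 162 with the replicate block, 5 with an adjusted p under 0.05 and 2 to 175 without 1 library. In the PFC, genes higher (15) were 85 with DESeq2, 297 with no filter, 192 with RUVs, 73 with the lane block, 475 with the replicate block and 1 to 195 (without sc-control replicate 4) without 1 library. Genes lower (0 with edgeR, 429 at an unadjusted p under 0.05) were 8, 115, 92, 4, 43 and 0 to 6.

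The replicate block, which kept 4 of 6, 4 of 8 and 8 of 15 libraries, called 1 receptor in the PFC (Clec5a, log2FC of 0.70) and 1 in the microglia (Clec4e, 0.20), where 0 or 1 were called without 1 library. The crossed pairing, added after the data were seen for the PFC, called 551 genes higher, 87 lower and 1 receptor.

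Values near 0 changed sign. In the microglia, Clec5a (0.00026) was -0.0016 with DESeq2, -0.0016 with RLE factors, -0.0029 with the stricter filter, -0.00059 with the lane block and -0.020 to 0.012 without 1 library, and Clec12a was 3.741e-05 with the replicate block. Without 1 library the microglia ranges were -0.048 to 0.028 for Clec12a, -0.026 to 0.078 for Clec4a2, -0.016 to 0.061 for Clec4d and -0.0090 to 0.043 for Clec4n. In the PFC they were -0.15 to 0.30 for Clec2d and -0.15 to 0.28 for Clec4n. The correlations with the marker level kept their sign and stayed outside the threshold with either alternative. At 12 to 41 reads in the co-cultures, Clec2d, Clec4n and Clec5a are limited by counting error.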
